A study of Mus musculus with 2 samples.

Results

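Open CpG-poor promoters were 953 regions at 895 protein-coding genes, taken from 65636 DNase I peaks that the 2 libraries shared. A region was counted when a peak of replicate 1 in the smaller of the authors' peak sets overlapped a peak of replicate 2 by 1 base or more, when its midpoint lay within 500 bp of the gene's most 5′ annotated start (GENCODE release M21, mm10), and when that start with 500 bp on either side had a CpG observed/expected ratio below 0.35. This ratio is the number of CpG dinucleotides divided by the number that the C and G content would give by chance. The libraries came from kidney tissue of untreated 36-day-old females of strain B6CASTF1/J, the F1 cross between C57BL/6J and CAST/EiJ mice, and formed 1 group with n = 2 and no control. The labels number the females separately and give the same donor entry for both, so the values show the spread between these libraries, which may be technical. DNase-seq sequences the ends left when DNase I cuts nuclear DNA, and a peak marks a stretch cut more often than its surroundings. How many reads each library held is not known here, and replicate 1 had 124504 peaks against 68056 in replicate 2.

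In mammals most promoters of widely used genes lie in CpG islands, stretches that escape DNA methylation and stay free of nucleosomes in many tissues. Promoters poor in CpG are often methylated and closed, and tend to belong to genes of specialised cells, where they open with the binding of tissue-restricted transcription factors. Many of them carry a TATA box, the element bound by the TATA-binding protein shortly upstream of the start.

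The sequences of 9 of these promoters show the motifs described further on, each from 150 bases upstream of the start to 30 bases downstream on the gene's own strand (mm10). For 3 of them the TATA sequence TATAAA is in capitals: Acy3, which encodes an aminoacylase (chr19:3986420-3986599, plus strand), Aqp1, the water channel of the proximal tubule (chr6:55336282-55336461, plus strand), and Agt, which encodes angiotensinogen (chr8:124569677-124569856, minus strand). These are among the tallest members with TATAAA 40 to 20 bases upstream of the start, and the match began 30 bases upstream at each.
Acy3: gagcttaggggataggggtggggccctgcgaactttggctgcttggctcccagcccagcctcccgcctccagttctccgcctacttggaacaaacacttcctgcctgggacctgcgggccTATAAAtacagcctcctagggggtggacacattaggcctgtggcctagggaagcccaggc
Aqp1: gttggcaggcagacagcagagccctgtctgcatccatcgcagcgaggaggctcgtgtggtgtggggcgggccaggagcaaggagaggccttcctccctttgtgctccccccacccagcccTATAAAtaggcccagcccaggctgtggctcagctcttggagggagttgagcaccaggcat
Agt: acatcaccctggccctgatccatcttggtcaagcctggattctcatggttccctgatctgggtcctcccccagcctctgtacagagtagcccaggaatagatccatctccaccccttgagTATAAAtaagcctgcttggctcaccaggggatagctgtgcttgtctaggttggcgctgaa

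For the next 3, capitals mark bases inside a footprint in both libraries, a footprint being a short stretch that the authors called as protected from cutting within open chromatin. They are the tallest promoters with a footprinted match to the HNF1 motif GTTAATNAT: Atp6v0a4, a subunit of the proton pump of intercalated cells (chr6:38124557-38124736, minus strand), Hgfac, the protease that activates hepatocyte growth factor (chr5:35041359-35041538, plus strand), and the promoter annotated to Gm28040 and to Golt1a (chr1:133309677-133309856, plus strand). The match began 62 bases upstream of the start at Atp6v0a4, 8 at Hgfac and 66 at Gm28040.
Atp6v0a4: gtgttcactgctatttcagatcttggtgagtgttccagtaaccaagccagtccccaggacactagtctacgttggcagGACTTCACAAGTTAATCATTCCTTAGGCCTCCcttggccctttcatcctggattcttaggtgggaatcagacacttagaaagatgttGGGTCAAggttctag
Hgfac: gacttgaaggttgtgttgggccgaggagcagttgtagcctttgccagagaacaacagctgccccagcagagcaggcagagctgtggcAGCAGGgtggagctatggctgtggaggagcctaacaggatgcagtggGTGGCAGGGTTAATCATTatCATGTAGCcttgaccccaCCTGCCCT
Gm28040: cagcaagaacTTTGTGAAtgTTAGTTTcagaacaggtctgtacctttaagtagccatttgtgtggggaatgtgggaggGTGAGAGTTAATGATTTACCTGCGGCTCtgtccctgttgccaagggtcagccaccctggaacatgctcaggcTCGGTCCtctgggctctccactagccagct

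The last 3 are marked in the same way and are the tallest with a footprinted match to CAAAGNNCA, the sequence searched for HNF4 and related receptors: Aspdh, named for an aspartate dehydrogenase domain (chr7:44465241-44465420, plus strand), Slco2a1, the prostaglandin transporter (chr9:102988562-102988741, plus strand), and Gm38303, whose peak lay 75 bp from a start of Slc10a5, a member of the bile acid carrier family (chr3:10335652-10335831, minus strand). Aspdh and Slco2a1 each held 2 matches. The match at Gm38303 is on the other strand and reads TGGACTTTG, and so is the second at Slco2a1, which reads TGACCTTTG.
Aspdh: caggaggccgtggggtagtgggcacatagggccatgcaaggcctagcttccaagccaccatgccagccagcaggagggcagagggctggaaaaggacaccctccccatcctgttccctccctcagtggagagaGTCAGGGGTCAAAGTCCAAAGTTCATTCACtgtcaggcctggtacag
Slco2a1: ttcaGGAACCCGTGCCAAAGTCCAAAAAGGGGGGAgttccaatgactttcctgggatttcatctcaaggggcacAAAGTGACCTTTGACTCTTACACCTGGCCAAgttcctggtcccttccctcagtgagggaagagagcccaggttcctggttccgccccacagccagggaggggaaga
Gm38303: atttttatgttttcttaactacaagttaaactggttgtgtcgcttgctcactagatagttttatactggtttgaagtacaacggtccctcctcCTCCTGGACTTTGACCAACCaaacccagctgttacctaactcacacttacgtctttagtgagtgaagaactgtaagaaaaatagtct

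Openness rose with CpG content throughout the CpG-poor range. Of 21938 protein-coding promoters 52.6% had a shared peak within 500 bp of the start, and of the 8065 CpG-poor promoters 11.1% did (exact Clopper-Pearson 95% interval 10.4% to 11.8%, which covers counting error over genes alone). At a ratio below 0.05 it was 9 of 525 promoters, or 1.71%. From 0.15 to 0.2 the share was 9.97%, from 0.25 to 0.3 it was 21.1%, and from 0.3 to 0.35 it was 25.4%. Just above the threshold, from 0.35 to 0.4, 35.6% were open, and at 0.8 or more 89.9%. The rise across 0.35 was wider than any between neighbouring classes below it. A wider one lay above it, from 45% at 0.4 to 0.5 to 66.1% at 0.5 to 0.6, in classes of greater width. The exact intervals on the sides of 0.35, 22.4% to 28.6% and 32.1% to 39.2%, did not overlap. This was not particular to 0.35. The intervals from 0.2 to 0.25 and from 0.25 to 0.3, 11.4% to 15.2% and 18.6% to 23.7%, did not overlap either. The number of members was 548 with the stronger 50% of each library's peaks and 1777 with any protein-coding start in place of the most 5′ one. Replicate 1 by itself gave higher shares than replicate 2 in each class below 0.35, at 34.2% and 25.9% in the highest of them, and the order of the classes was the same in both.

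**Figure D1:**
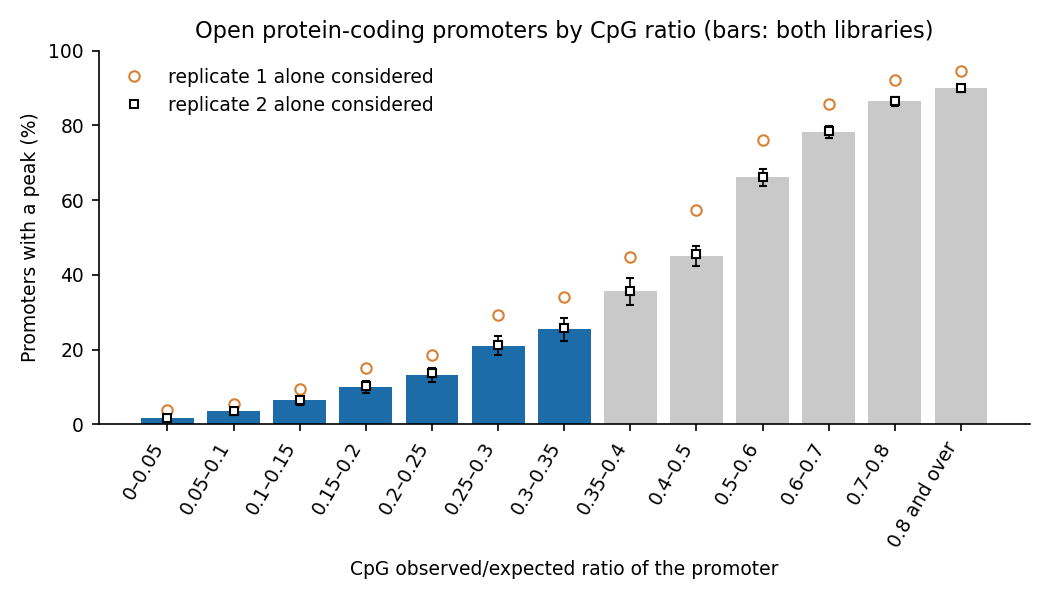
Share of protein-coding promoters with a peak, in percent, by class of CpG observed/expected ratio. Bars are promoters open in both libraries with exact 95% intervals, blue below 0.35 and grey above, and circles and squares are replicate 1 and replicate 2 taken separately. The bars climb from 1.71% to 25.4% within the blue classes and reach 89.9% at the right.

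Umod shows how far down the range an open promoter could lie. The gene encodes uromodulin, the main protein of normal urine, made in the thick ascending limb. Its promoter had a ratio of 0.0210 with 1 CpG, and its peak reached 5.39 in replicate 1 against 4.38 in replicate 2 on the authors' height scale. Defb11, a beta-defensin gene, had the lowest ratio of the members, 0.0173, also with 1 CpG, and heights of 1.15 and 1.60. Of the 2, Umod was the taller in both libraries. Heights are given here in the order replicate 1, replicate 2, and for a gene with several peaks the tallest is given. The other way round, the members nearest below 0.35 were Mttp, which loads lipid onto lipoproteins, with heights of 4.43 and 1.38, Gstp2, a glutathione transferase gene, with 5.67 and 3.88, and the cytokine gene Il6 with 3.24 and 1.86. The nearest open promoters at or above 0.35 were Syn3, with 9.65 and 8.09, Ccrl2, with 1.5 and 0.937, and Chd2, with 1.88 and 1.24. The ranges on the sides of the threshold overlapped in both libraries.

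Members had a median ratio of 0.244 and 15 CpGs, against 0.157 and 8 at the 6763 CpG-poor promoters with no peak in either library and 0.753 and 66 at the 10653 other open promoters. The median GC content was 51.2% at members, 44.6% at CpG-poor promoters with no peak and 59.6% at other open promoters. Repeats and low-complexity sequence, given in lower case in the reference, filled a median of 11.3% of these bases at members and 15% at those with no peak. Another shared peak lay within 10 kb of the start, outside the promoter, for 68.4% of members, for 64.5% of other open promoters and for 27.6% of CpG-poor promoters with no peak. The part of CpG or GC content in openness was not tested. By chromosome, the open share of CpG-poor promoters was highest on chromosome 15, at 19.7%, and was 5.30% on X, with 23 of 434. None of the 162 on Y was open, which the sex of the animals fixed beforehand, since females carry no Y chromosome. They are counted among the 8065 CpG-poor promoters.

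Peaks of replicate 1 at CpG-poor promoters that replicate 2 did not share were mostly low. In replicate 1, 1277 CpG-poor promoters had a peak, of which 70.1% were open in both libraries, against 91.6% of the other promoters with a peak in replicate 1. Replicate 1 alone had a peak at 378 CpG-poor promoters and replicate 2 alone at 25, and 4 had peaks in both that did not meet the rule. Taken alone, without the other library, replicate 1 gave 1444 open CpG-poor promoter peaks and replicate 2 gave 986, beside the 953 shared. Below a height of 1, 22.3% of 422 replicate 1 peaks at CpG-poor promoters were shared, and 16.5% at the others. At matched height the classes were close: of replicate 1 peaks with a height of 1 to 2, 64.0% were shared at CpG-poor promoters and 61.9% at the others, and at 2 to 4 it was 92.1% and 89.2%. At 8 or more, 93 of 93 were shared at CpG-poor promoters and 99.8% at the others. In bulk tissue a low peak from few cells with an open promoter and a low peak from many cells with a weakly open promoter cannot be told apart.

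The peaks of open CpG-poor promoters were low among promoters. Heights are the authors' signal, whose scale the sources leave unstated, and serve here to rank the peaks of a library. The median height of members was 2.67 in replicate 1 and 1.74 in replicate 2, against 7.27 and 4.57 at other open promoters. Shared peaks over 500 bp from these starts had medians of 2.21 and 1.33. Members therefore lay nearer to peaks away from promoters than to other promoters, in both libraries. Their heights ran from 0.297 to 27.2 in replicate 1 and from 0.285 to 26.6 in replicate 2. Among the tallest 10% of all shared peaks were 57 members in replicate 1, or 5.98%, and 71 in replicate 2, or 7.45%, against 39.7% and 38.1% of the peaks at other open promoters. The lowest false discovery rate inside the peak, as the authors deposited it, had a median of 3.24e-21 and 1.80e-11 at members and of 1.32e-64 and 2.46e-35 at other open promoters. Without the need for a peak in replicate 2, the median height in replicate 1 was 1.73, and with the stronger 50% of peaks the medians were 4.44 and 2.85. Peak width did not follow this order in replicate 1, with a median of 200 bp for both classes, and in replicate 2 it was 200 and 220 bp.

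**Figure D2:**
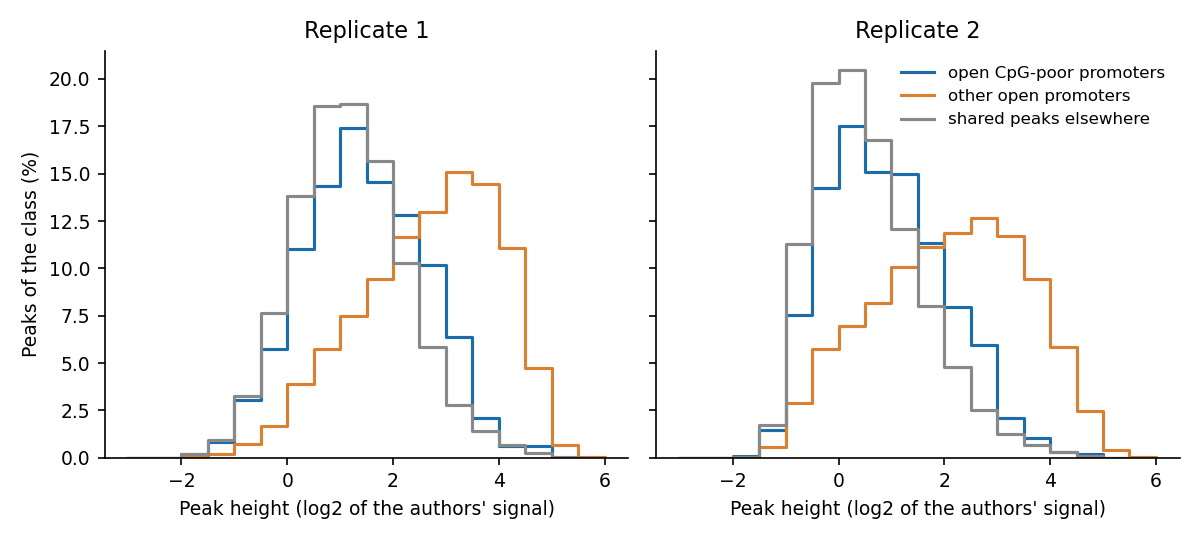
Distribution of peak heights in replicate 1 (left) and replicate 2 (right), as the percent of peaks of each class in steps of log2 height. Lines are open CpG-poor promoters (blue, 953 peaks), other open promoters (orange, 11693) and shared peaks elsewhere (grey, 52990). The blue line follows the grey one more closely than the orange one, with medians of 2.67, 2.21 and 7.27 in replicate 1 for blue, grey and orange.

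The ranks of members held between the libraries. The heights had a Spearman correlation of 0.930 over the 953 members, given as a description across peaks of the same pair of libraries. It was 0.981 at other open promoters, 0.878 at shared peaks elsewhere and 0.916 over all shared peaks. The median log2 ratio of replicate 2 over replicate 1 was −0.55 at members, −0.58 at other open promoters and −0.60 over all shared peaks, so members shifted with the rest. Replicate 2 was the higher at 73 of the 953 members, beside 5093 of all 65636 shared peaks. The lowest ratios were at Zfp455, a zinc finger gene with heights of 3.0 and 0.774, at Eci2, an enzyme of fatty acid oxidation with 2.32 and 0.632, and at Sult1d1, a sulfotransferase gene with 3.72 and 1.02. The highest were at Tmem238l, with 0.334 and 0.764, at Gm9758, with 0.501 and 0.907, and at Fam84b, with 0.650 and 1.06. The members at the high end were low peaks in both libraries.

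The tallest members included genes of varied function, described here by mean rank over the libraries. Tef, a PAR bZIP transcription factor whose level follows the circadian clock, had heights of 27.2 and 25.1. Tldc1 had 22.8 and 26.6, and was the tallest of the members in replicate 2. Gstm7, a glutathione transferase gene, had 24.8 and 18.9. Pold4, a subunit of DNA polymerase delta, had 24.0 and 15.5, and Ptms, which encodes parathymosin, had 22.4 and 16.4. All 5 were among the 10 tallest members of both libraries. Mknk2, a kinase that phosphorylates a translation initiation factor, had 19.8 and 17.8. Cyp4f13, a cytochrome P450 gene, had 17.4 and 13.6, and Fcgrt, the receptor that rescues IgG and albumin from breakdown, had 17.4 and 13.3. The remaining tall members included Ticam1, the adaptor TRIF of Toll-like receptor signalling, with 15.7 and 11.8, Grn, which encodes progranulin, with 16.3 and 10.9, and Mterf2, a mitochondrial transcription factor of the mTERF family, with 18 and 12.7. Elf3, an ETS factor of epithelia, had 13.2 and 13.6.

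Some tall members shared their peak with another start or lay off the annotated one. The peak of Gm20449, with heights of 25.8 and 14.5, lay 24 bp from a start of AW146154, nearer than its own. Tmem176b, with 23.4 and 15.6, and Tmem176a, with 14.7 and 11.1, are neighbours on opposite strands, and the taller peak lay 51 bp from a start of Tmem176a. The midpoint lay 312 bp downstream of the start at Ptms and 496 bp downstream at Madd, an exchange factor for Rab GTPases with heights of 15.5 and 10.6. Over all members, 24 peaks, or 2.52%, had a start of another protein-coding gene within 500 bp, in 9 cases with a ratio of 0.35 or more at that start, and in 14 cases such a start was the nearer. A start of any other gene was within that distance of 61 peaks. The same peak served 2 or more CpG-poor genes in 19 cases. With the ratio taken around the peak's midpoint instead of the start, 890 of 953 members, or 93.4%, were still below 0.35. Among the 174 whose midpoint was over 250 bp from the start this share was 78.2%, and among the 57 members in the tallest 10% of replicate 1 it was 84.2%.

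Member peaks centred slightly upstream of the start. The midpoint of the gene's tallest peak had a median position of −33 bp, with the middle 50% from −89 to 37 bp, against −34 bp and −83 to 12 bp at other open promoters. It covered the start itself at 560 genes, or 62.6%, against 70.8%. The position of the lowest false discovery rate had a median of −34.5 bp in replicate 1 and −27.5 bp in replicate 2. At 77 of the 895 member genes there were 2 or more peaks, against 2240 of the 10653 other open promoters. Cover was averaged over the bases of each 20-base bin and over genes. At members, peak cover was highest from 40 to 21 bases upstream of the start, at 71.2% in replicate 1 and 64.7% in replicate 2. Their footprint cover was highest from 60 to 41 bases upstream, at 21.3% and 15.8%. At other open promoters footprint cover was highest from 20 to 1 bases upstream, at 37.5% and 31.3%. These tops were broad. Members had 19.5% and 15.3% from 80 to 61 bases upstream, and 19.1% and 14.5% from 40 to 21. Other open promoters had 36.0% and 29.6% from 60 to 41 bases upstream. The bins of highest footprint cover lay 40 bases apart in both libraries, and whether this gap exceeds counting error was not tested.

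**Figure D3:**
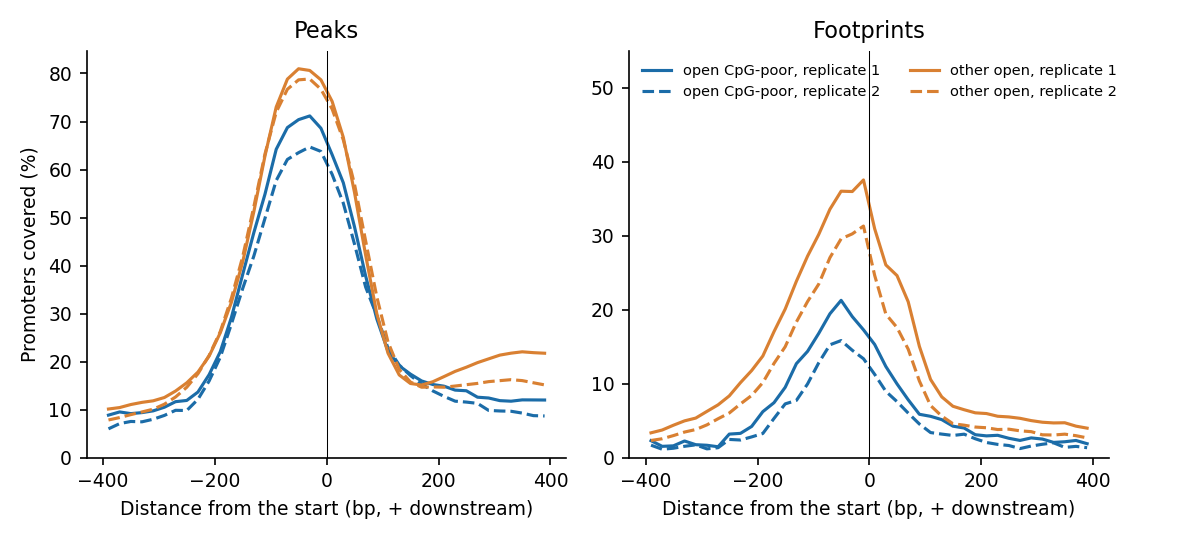
Percent of promoters covered by a peak (left) and by a footprint (right) by distance from the start in bp, averaged over the bases of each bin of 20 bases. Blue lines are the 895 open CpG-poor promoters and orange lines the 10653 other open promoters, solid in replicate 1 and dashed in replicate 2. Footprint cover at the blue lines is highest, at 21.3% and 15.8%, 60 to 41 bases upstream.

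CpG-poor promoters of genes listed for the kidney's tubules were open more often than CpG-poor promoters as a whole. Of the transporter genes of the proximal tubule, the segment that reclaims most filtered solutes, 23 of 36 CpG-poor promoters were open, or 63.9%, beside 11.1% of all CpG-poor promoters. Of its metabolic genes 29 of 46 were open, or 63.0%, and of brush border and endocytosis genes 8 of 18. The lists were chosen with results of these data known, so these shares describe them and are no test. The median heights of the open members were 3.23 and 2.36 for transporters and 5.07 and 3.17 for metabolic genes, beside 2.74 and 1.79 for the tallest peak of all member genes. Another 3 transporter, 10 metabolic and 2 brush border genes had a peak in replicate 1 alone.

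Aqp1 was the tallest of the transporters by mean rank, with heights of 7.31 and 7.20. The monocarboxylate carrier family member Slc16a4 had 8.68 and 5.14. The vitamin C transporter gene Slc23a1 had 6.76 and 5.43, Slc7a9, which with a partner carries cystine and basic amino acids, had 6.19 and 5.19, and Slc6a13, a GABA and betaine carrier, had 5.45 and 4.41. Slc5a2, which encodes the glucose carrier SGLT2, was lower, at 1.94 and 1.41. Among the metabolic genes, Pipox, an oxidase of sarcosine and pipecolic acid, had 14.1 and 11.6, and Acy3 had 11.5 and 10.3. Pck1, the gluconeogenic enzyme PEPCK, had 9.76 and 8.14, and Pter, a gene of the phosphotriesterase family, had 11.5 and 6.51. The D-amino acid oxidases Ddo and Dao had 7.87 and 7.41, and 8.23 and 6.78. In the brush border list, the trehalase gene Treh had 7.52 and 6.95, the folate receptor gene Folr1 4.82 and 3.31, and the motor gene Myo7b 4.20 and 3.49. Its microvillar partners Cdhr5, Ush1c and Cdhr2 had 4.78 and 2.71, 3.51 and 2.25, and 3.67 and 2.12.

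Some genes with no peak at the most 5′ start had a shared peak at another annotated start, and most did not. Slc34a1, the phosphate carrier of the proximal tubule, had no peak within 500 bp of that start in either library, and a shared peak at another of its annotated starts, with the nearest shared peak 1414 bp away. The same held for Ggt1 and Pdzk1, with the nearest shared peak at 1323 and 777 bp, and for Hnf4a, the regulator of proximal tubule genes, at 25067 bp. The organic anion carrier genes Slc22a8 and Slc22a13 had none at any annotated start, and the nearest lay at 1817 and 1787 bp. Of all 6763 CpG-poor promoters with no peak in either library, 657 genes, or 9.71%, had a shared peak at another annotated start, and the nearest shared peak lay at a median of 40642 bp.

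Genes of the thick ascending limb and distal tubule had 11 of 20 CpG-poor promoters open, or 55%. Those of the collecting duct had 14 of 24, or 58.3%, beside the 11.1% of all CpG-poor promoters. Besides Umod, Kcnj16, a potassium channel subunit, had heights of 8.41 and 6.18, Bsnd, the chloride channel subunit barttin, had 3.05 and 2.63, and Egf, made in the distal tubule, had 2.86 and 2.41. Tmem72 had 4.48 and 3.85. The salt carrier genes Slc12a1 and Slc12a3 were low, at 0.789 and 1.12, and 1.84 and 1.19. Of the genes listed for the collecting duct, Cdh16, the kidney-specific cadherin, had 12.8 and 9.93, and Atp6v0a4 had 10.3 and 7.27. The tissue was bulk kidney, so the heights do not assign a peak to a segment. Prss8, a protease that activates the epithelial sodium channel, had 10.1 and 7.35, and Scnn1a, the alpha subunit of that channel, had 3.18 and 3.07. Cldn8, a tight junction protein, and Krt7, a keratin of ductal epithelia, had 3.21 and 2.36, and 2.64 and 2.57. Cldn16 and Pvalb in the first list and Slc14a2 and Slc4a1 in the second had no peak at the most 5′ start in either library.

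Of kidney epithelial transcription factor genes, 17 of 50 had a CpG-poor promoter and 5 of these were open, or 29.4%, beside the 11.1% of all CpG-poor promoters. Besides Elf3 these included Pax8, needed for kidney development, with 7.22 and 6.19, and the nuclear receptor genes Nr1h4, with 6.05 and 3.30, and Nr1i2, with 1.98 and 1.66. Another 4 had a peak in replicate 1 alone, and 5 of the 8 with none had a shared peak at another start.

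Cell types outside the tubules divided into those with open CpG-poor promoters and those near the background. The endothelial list had 18 of 33 open, or 54.5%, with Tie1, a receptor of the angiopoietin pathway, at 4.53 and 5.02, Clec14a at 3.73 and 3.78, and Cdh5, which encodes VE-cadherin, at 3.51 and 2.39. The stromal and mural list had 7 of 15, or 46.7%, with low peaks, at medians of 0.798 and 0.774: Myh11, the smooth muscle myosin, had 1.85 and 1.39, and Col1a1, a collagen chain, had 0.650 and 0.774. For podocytes, the filtering cells of the glomerulus, 1 of 4 was open, Sema3g at 4.78 and 2.24, and Nphs1, which encodes nephrin, had a peak in replicate 1 alone. Immune genes had 5 of 53 open, or 9.43%, close to the 11.1% of all CpG-poor promoters. Of those 5, 4 belong to antigen presentation on MHC class II: H2-Eb1 with 7.10 and 3.11, H2-Aa with 4.61 and 3.48, H2-Ab1 with 2.70 and 1.22, and Cd74 with 1.53 and 1.33. The other was Tlr4, the receptor for lipopolysaccharide, with 5.32 and 3.42. The pan-leukocyte gene Ptprc and the macrophage gene Csf1r had no peak at the most 5′ start in either library.

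Lists of genes of other organs were near or below the 11.1% of all CpG-poor promoters. Hepatocyte genes had 5 of 41 open, or 12.2%, slightly above it, namely Apoc3 with 3.54 and 2.43, Fga with 2.69 and 1.21, C3 with 2.10 and 1.47, Apob with 2.10 and 0.998, and Apoa4 with 1.49 and 0.988. These encode apolipoproteins, a fibrinogen chain and a complement component, and Alb and Ttr, the genes of albumin and transthyretin, had no peak there in either library. Another 6 of the 41 hepatocyte genes had a peak in replicate 1 alone, beside 378 of all 8065 CpG-poor promoters. The count open in both libraries was 1 of 11, or 9.09%, for erythroid cells. It was 2 of 23, or 8.70%, for pituitary, adrenal and gonad, and both were near the 11.1%. It was 0 of 29 for striated muscle, 1 of 21 for male germ cells, 2 of 33 for keratinised epithelium and 2 of 43 for pancreas, stomach and gut, and 1 of 17 for eye and sensory cells. The last was Opn1sw, a cone opsin gene, whose peak had heights of 5.87 and 3.42 with its midpoint 243 bp upstream of the start. Guca2b, which encodes uroguanylin, a hormone of gut and kidney, had 2.73 and 1.79, and Atp4a, the gastric proton pump, 1.00 and 0.723. Star, which brings cholesterol into mitochondria for steroid synthesis, had 1.71 and 1.79, and Akr1b7, an aldo-keto reductase gene also in the stromal list, 0.575 and 0.693.

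**Figure D4:**
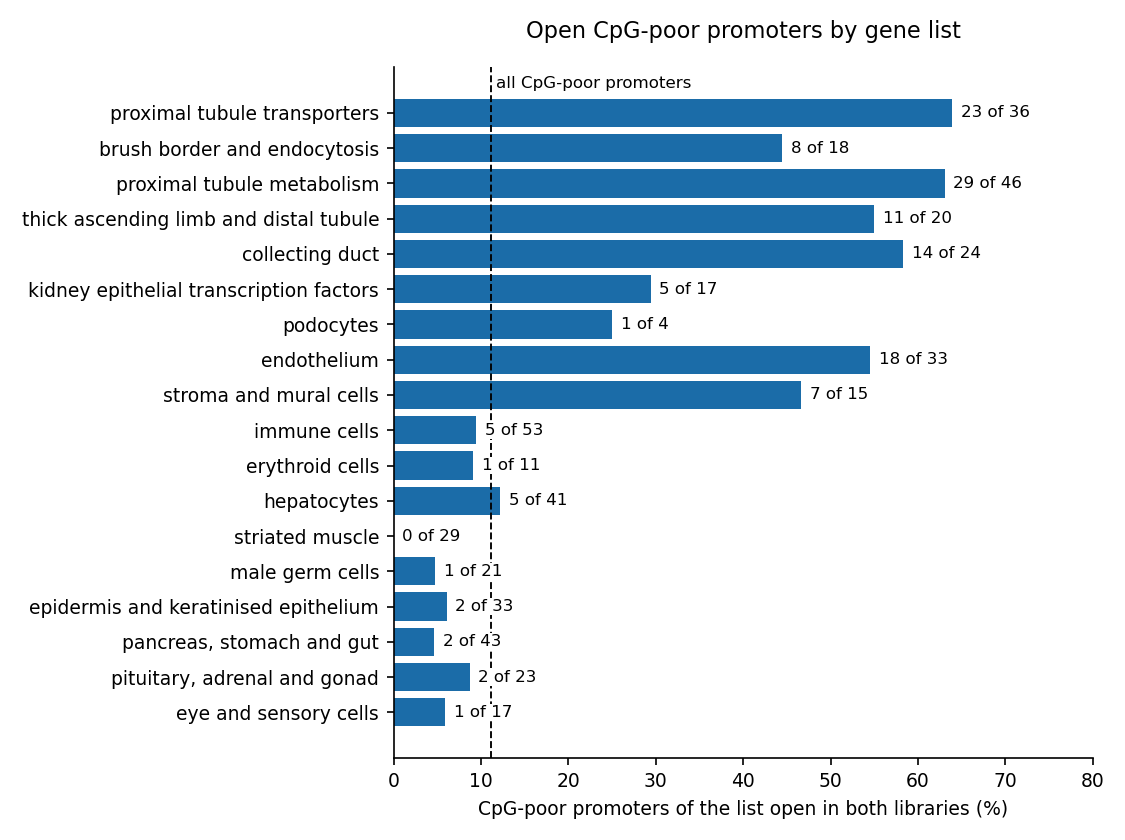
Percent of the CpG-poor promoters of each gene list that were open in both libraries, with the counts beside the bars. The dashed line is the 11.1% over all 8065 CpG-poor promoters, and the bars run from 63.9% for proximal tubule transporters to 0 of 29 for striated muscle.

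Gene families showed how unevenly the CpG-poor class was open. Olfactory receptor genes, which serve smell, made up 1126 of the 8065 CpG-poor promoters with 2 open, Olfr433 at 1.10 and 1.10 and Olfr1375 at 0.817 and 0.611. Vomeronasal receptors had 0 of 329 open, keratin-associated proteins 0 of 53, secretoglobins 0 of 34 and Ms4a genes 0 of 19. Solute carriers had 40 of 118 open, or 33.9%, and cytochromes P450 18 of 82, or 22%, beside the 11.1% of all CpG-poor promoters. Glutathione transferases, which conjugate toxic compounds, had 6 of 12 open, and carboxylesterases, which split esters and drugs, 8 of 19. After Gstm7 and Gstp2, Gstm2 had 3.32 and 2.28 and Gstt1 3.66 and 1.40. Ces1d had 9.94 and 6.83, Ces2h 6.03 and 5.36, Ces1e 2.59 and 1.93, and Ces2e 2.36 and 1.20. These were the highest shares among the families with 10 or more CpG-poor promoters.

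Interleukins and their receptors had 11 of 57 open, or 19.3%, beside the 11.1% of all CpG-poor promoters. Il15, a cytokine that sustains natural killer cells, had heights of 9.78 and 8.07 and 7 footprints that the libraries shared. Il22ra1, the epithelial receptor of IL-22, had 8.56 and 4.96, Il1r1, the IL-1 receptor, 5.39 and 4.27, and Il33, an alarmin, 5.34 and 1.97. Serpins, a family of protease inhibitors, had 6 of 57 open, close to the background, among them Serpinf2, which encodes alpha-2-antiplasmin, at 4.31 and 2.73. Toll-like receptors, sensors of microbial molecules, had 3 of 9, with Tlr12 at 2.17 and 1.72 and Tlr3 at 0.436 and 0.591 beside Tlr4. Kallikreins had 1 of 25, Klk1, the tissue kallikrein, at 1.61 and 1.93. Beta-defensins, which kill microbes, had 4 of 41 open, or 9.76%, close to that background, with Defb29 at 3.63 and 2.32 and Defb1 at 1.66 and 1.27.

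Footprints were about as frequent in member peaks as in shared peaks at large. At least 1 footprint lay in 95.5% of members in replicate 1 and 91.5% in replicate 2, with medians of 3 and 2. Over all shared peaks the shares were 95.2% and 90.1%, with the same medians. At other open promoters the shares were 94.9% and 91.8%, with higher medians of 4 and 4. A footprint found in both libraries, with an overlap of at least 50% of the shorter, was present in 729 members, or 76.5%, near the 77.0% of all shared peaks and the 74.8% of shared peaks elsewhere, and below the 87.1% of peaks at other open promoters. Height differed between these classes, and within classes of height the order was not kept. At a height of 1 to 2 in replicate 1, 60.3% of 242 members and 37.7% of 1129 other promoter peaks had such a footprint, and at 2 to 4 it was 84.3% and 77.3%. At 4 to 8 it was 97.3% and 96.8%, and at 8 or more 96.8% and 99.9%. The most shared footprints were 9, at Pck1, whose peak was 500 bp wide in replicate 1 and ran from 173152581 to 173153080 on chromosome 2. Il15 had 7, and Mrgpre, an orphan receptor gene of the Mrg family with heights of 6.81 and 4.52, and Slc10a6, a carrier of steroid sulfates with 7.07 and 5.64, had 6 each.

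Motif matches at members were compared with those at other open promoters and at CpG-poor promoters with no peak. For 17 motifs, promoters were searched from 250 bases upstream to 50 bases downstream of the start, on both strands apart from TATAAA, and a match is a description of the letters. GC content differed between the classes as given above, and its part in these shares was not tested. Member peaks were also lower than those at other open promoters and covered the start less often, as given above. Matches were counted whether or not a peak covered them, and the part of height and cover in the footprinted shares was not tested. TATAAA began 40 to 20 bases upstream at 22 of 895 members, or 2.46% (exact Clopper-Pearson 95% interval 1.55% to 3.70%). The share was 0.695% at other open promoters, 5.34% at CpG-poor promoters with no peak and 2.42% over all promoters. It was thus higher at closed than at open CpG-poor promoters. In steps of 5 bases, the match was most frequent from 30 to 26 bases upstream in both, at 1.45% of members and 2.65% of those with no peak. Other tall members with a match were Adamtsl2, a secreted protein of the extracellular matrix, with heights of 6.56 and 3.74, and the cytokine gene Tnfsf18, with 5.98 and 3.98. Of the 22 matches, 2 lay wholly in a footprint in replicate 1, 1 in replicate 2 and 0 in both. At other open promoters 16 of 74 lay in a footprint in both, or 21.6%.

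The HNF1 motif GTTAATNAT was at 23 members, or 2.57%, against 0.310% of other open promoters, 1.23% of CpG-poor promoters with no peak and 0.748% of all promoters. Of its 24 matches at members, 14 lay in a footprint in replicate 1, 11 in replicate 2 and 10 in both, or 41.7%. At other open promoters it was 1 of 33 in both. The footprinted matches printed for Atp6v0a4, Hgfac and Gm28040 stood in peaks with heights of 10.3 and 7.27, 9.82 and 6.59, and 8.69 and 6.70. Folr1 had 2 matches, 100 and 16 bases upstream, with a footprint at the nearer in replicate 1 alone, and Cdhr2 had a match 52 bases upstream with a footprint in neither. No other motif searched had so high a share of matches footprinted in both libraries at members.

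The HNF4-type motif CAAAGNNCA was at 10.3% of members, 4.69% of other open promoters, 7.30% of those with no peak and 5.93% of all. Of 104 matches at members 6 lay in a footprint in both libraries, or 5.77%, and of 516 at other open promoters 42 did, or 8.14%. Aspdh had heights of 5.07 and 3.05 and Slco2a1 5.00 and 2.64, and Apob had a footprinted match 74 bases upstream. Pipox, Apoc3 and Cyp4b1 had matches with a footprint in neither library, and Treh had a match footprinted in replicate 2 alone.

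The GC box GGGCGG, bound by SP and KLF factors, showed the widest gap to other open promoters, at 22.2% of members against 67.8%. It was at 6.68% of CpG-poor promoters with no peak and 43.0% of all promoters. This motif holds a CpG, which the rule restricts, so its share is in part set by the choice of members. Of 271 matches at members 73 were footprinted in both libraries, or 26.9%, with Tldc1, Gstm7 and Pold4 the tallest, against 41.1% at other open promoters. The ETS sequence with a CpG, CCGGAAG, was at 4.25% of members and 19.1% of other open promoters. Its share too is in part set by the choice of members. It was at 1.55% of CpG-poor promoters with no peak and 10.8% of all promoters. The ETS sequence without a CpG, CAGGAAG, was at 23.6% of members and 10.9% of other open promoters, and at 14% of those with no peak and 12.3% of all. The form without a CpG was footprinted in both libraries in 3 of 237 matches at members, or 1.27%, against 3.15% at other open promoters, the tallest of these being Mknk2, Bdh2 and Tlr4.

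The CACCC box CCCACCC was at 22.6% of members, 20.6% of other open promoters, 11% of those with no peak and 18.3% of all, and in the peaks' own bases the order of members and other open promoters turned, to 14.7% and 15.5%. At members 25 of 248 matches were footprinted in both libraries, or 10.1%, against 17.5% at other open promoters, with Tmem176b and Fkbp5, a chaperone gene induced by glucocorticoids, among the tallest. The E-box CAGCTG was at 24.0%, 13.6%, 16.9% and 15.6% in the same order, and AACCNGTT, bound by grainyhead-like factors of epithelia, at 4.36%, 1.69%, 2.03% and 1.97%. The share at members was above all 3 comparison groups for both. The CCAAT box CCAAT was near level, at 36.5%, 40.1%, 40.5% and 39.0%, with 7.16% of 447 matches at members and 13.0% at other open promoters footprinted in both. For the C/EBP sequence TTGCNNAA the shares were 13.7%, 7.68%, 14.8% and 10.5%, and for the AP-1 sequence TGANTCA 8.72%, 3.86%, 11.4% and 6.91%. For these last 2 the members lay above other open promoters. Against CpG-poor promoters with no peak they were lower for AP-1, and for C/EBP the exact interval at members, 11.6% to 16.2%, covered the other share. From 100 bases upstream to 50 downstream the C/EBP order turned, at 6.82% of members and 6.51% of those with no peak.

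The remaining motifs had few or no matches at members that were footprinted in both libraries. The GATA sequence AGATAAG was at 3.58% of members, 4.81% of those with no peak and 2.80% of all promoters. In the same order, the steroid receptor palindrome ACANNNTGT was at 8.94%, 9.91% and 5.83%, and the estrogen-related receptor sequence TCAAGGTCA at 0.559%, 0.828% and 0.474%. For these 3 the share at members lay between the others, and its exact interval covered the share at those with no peak. At other open promoters it was 1.43% for GATA and 3.17% for the palindrome. There it was 0.282% for the estrogen-related receptor sequence, whose interval at members covered that share too. The forkhead sequence TGTTTAC was at 5.25% of members, 4.17% of those with no peak, 3.05% of all and 2.30% of other open promoters. Its exact interval at members, 3.88% to 6.92%, covered the share at those with no peak. Each of these 4, and AACCNGTT, had 0 matches footprinted in both libraries at members. At other open promoters such matches were few too. There it was 3 of 153 for GATA, 5 of 346 for the palindrome and 0 of 31 for the estrogen-related receptor sequence. For forkhead it was 1 of 247, and for AACCNGTT 5 of 183. The TEAD sequence ACATTCC was at 5.92% of members, 5.32% of those with no peak, 3.53% of all and 2.39% of other open promoters. Its exact interval at members, 4.47% to 7.67%, covered the share at those with no peak. Of its matches at members, 2 of 56 were footprinted in both libraries, or 3.57%, against 4.94% at other open promoters. The 2 were at Pde4c, a cAMP phosphodiesterase gene, and Ghdc.

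**Figure D5:**
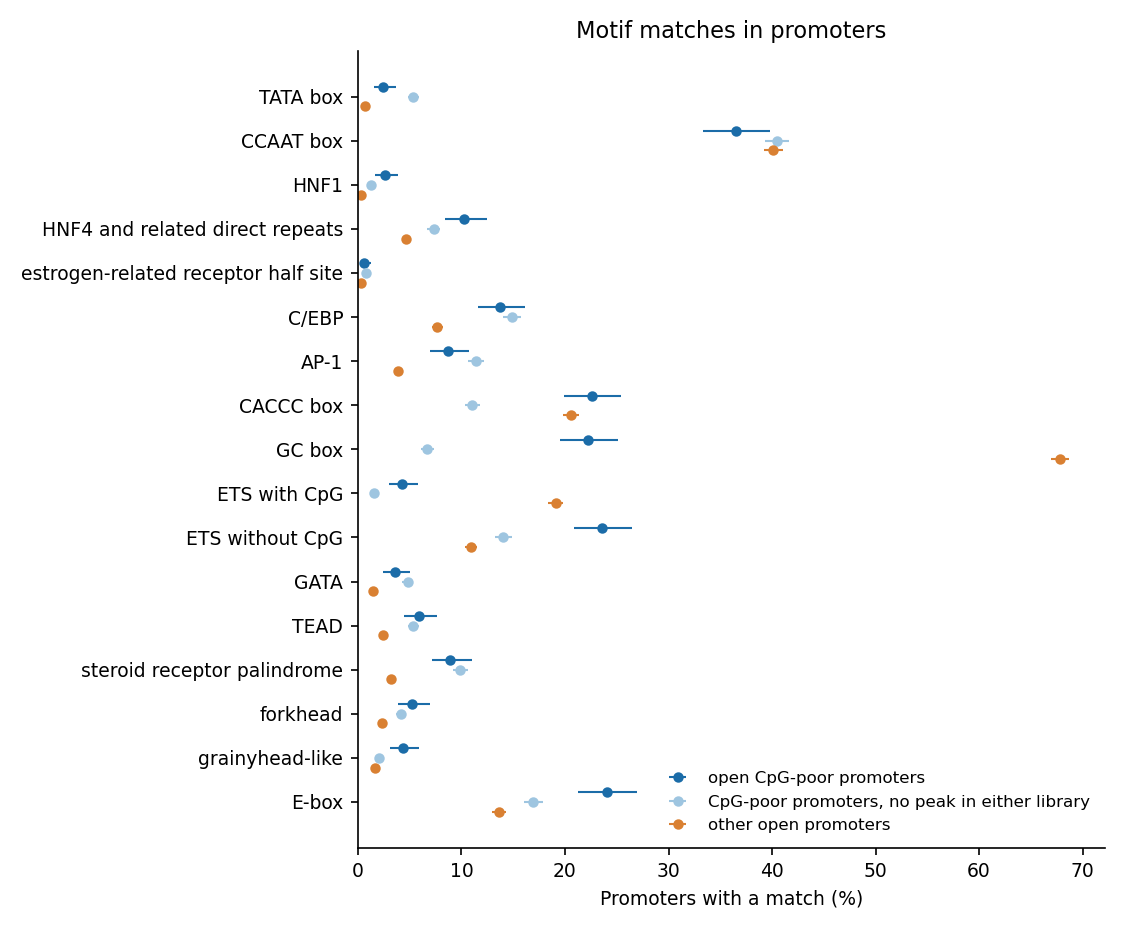
Percent of promoters with a match to each of 17 motifs, with exact 95% intervals. Dark blue is open CpG-poor promoters, light blue CpG-poor promoters with no peak in either library and orange other open promoters. The GC box shows the widest gap, 22.2% against 67.8% in orange, and TATAAA is at 2.46% in dark blue and 5.34% in light blue.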

How the data were processed

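DNase-seq was measured in 2 kidney libraries of 1 group. The authors made peaks, footprints and false discovery rates from filtered alignments to mm10, library by library, per the deposited description; the aligner and peak caller are not named there. The deposited peaks carry a signal, the height, of unstated scale. The deposited false discovery rates are q-values per interval, and every deposited footprint carries 0.01, taken as the threshold of the set.

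Overlaps, CpG ratios and motif matches were computed on GENCODE M21 and the mm10 sequence with Python 3.11.15, pandas 2.3.3 and pysam 0.24.0, and the steps were tested on simulated data. Shares have exact Clopper-Pearson 95% intervals (scipy 1.17.1). A single group allows no comparison of conditions, and genes are not replicates. Read totals, which set the precision, were not used.

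The members, the 18 gene lists and the 26 symbol families were chosen with earlier results of these data known. Named genes were the 20 tallest by mean rank, up to 6 open and 4 closed per list, up to 4 per family, 3 on each side of the threshold, the 5 with most shared footprints, 3 at each end of the height ratio, the 6 tallest with TATAAA and 3 per footprinted motif. Slc5a2, Slc12a1, Slc12a3, Nphs1 and Golt1a were added after their values were seen, as were other-start peaks, the ratio around the peak, and the motif examples at Folr1, Cdhr2, Pipox, Apoc3, Cyp4b1, Treh and Apob. Alternatives changed the ratio threshold and window, distance, peak set, overlap, start and motif window, or left out a library. Some genes that this rule names are not reported here.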

Additional observations from a re-analysis of the deposited data

How the results depend on the processing

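Of the recomputed values of the main results, 25 moved beyond their interval (a count, by over 1.5 times) and 50 did not. The median log2 height ratio stayed negative wherever it was recomputed. No comparison group was recomputed for the main results, so the order between classes was not checked for them. The open share of CpG-poor promoters, 11.1%, was 9.52% at a ratio below 0.30 and 13.1% below 0.40, 9.78% within 250 bp and 13.9% within 1000 bp, 14.4% in the wider peak set, 6.52% with the stronger 50% of peaks, 10.2% with 50% overlap and 12.8% with any protein-coding start. The number of members, 953, was 548 with the stronger 50% and 1777 with any start. The footprinted share, 76.5%, was 63.1%, 92.7% and 79.7% with the wider set, the stronger 50% and 50% overlap, and 79.5% with footprints overlapping by 1 base. Median heights under those 3 peak settings were 2.00, 4.44 and 2.87 in replicate 1 and 1.26, 2.85 and 1.88 in replicate 2. Leaving out a library, which removes the need for sharing, gave 986 to 1444 members, 11.4% to 15.8% open and 87.7% to 90.1% with a footprint in the library kept, with a median height of 1.73 in replicate 1 and 1.68 in replicate 2. The TATAAA share ran from 1.90% to 3.24% and the median log2 height ratio from −0.57 to −0.54. Of the motif shares recomputed in a narrower window or in the peak's own bases, 22 moved and 10 did not; the order against other open promoters turned for the CACCC box in the peaks' own bases (14.7% and 15.5%), and that against closed CpG-poor promoters for C/EBP in the narrower window (6.82% and 6.51%) and, barely, for the CCAAT box (both 23.5%). No paired analysis was possible because there is 1 group. How far read depth limits the low peaks was not tested.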
